A study of Mus musculus with 4 samples.

Results

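The nuclear genes of the mitochondrial respiratory chain and ATP synthase were examined in RNA from whole testes of 2 Fam46c KO and 2 WT mouse libraries. All 4 libraries came from adult males described as a DBA/C57 F1 background, and the only stated difference between the groups was the Fam46c genotype. FAM46C is a noncanonical poly(A) polymerase, and the libraries were made to look for testis genes that depend on it. The labels do not say how the allele was made, or whether a library stands for 1 animal, a pool, or a repeat of the same RNA. The p-values therefore reflect the scatter among 4 libraries, and that scatter may be technical. Members were chosen by symbol: every row whose name begins with Nduf, Uqcr, Atp5 or Cox followed by a digit from 4 to 8, together with Sdha, Sdhb, Sdhc, Sdhd, Cycs and Cyct. This rule gave 92 of 22552 symbols. It found 36 complex I subunits, 4 complex I assembly factors, 4 subunits of complex II, 8 of complex III, 2 cytochromes c, 20 subunits of complex IV and 15 of ATP synthase. Ndufa4 and its relative Ndufa4l2 were counted with complex IV, where the Ndufa4 protein is now placed. The other 3 names matched the rule without encoding a core subunit: Cox4nb, a neighbour of Cox4i1 now named Emc8, and Atp5s and Atp5sl, now named Dmac2l and Dmac2.

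The respiratory chain passes electrons from NADH and succinate through complexes I and II to ubiquinone, then through complex III and the small soluble protein cytochrome c to complex IV, which reduces oxygen. Complexes I, III and IV pump protons, and ATP synthase uses the gradient to make ATP. Most subunits are encoded in the nucleus. Several nuclear genes have paralogs expressed mainly in 1 tissue: Cyct, Cox6b2, Cox7b2 and Cox8c are known as testis forms of Cycs, Cox6b1, Cox7b and Cox8a. In sperm, mitochondria are wrapped around the midpiece of the flagellum, and male germ cells replace the general cytochrome c with the testis form as meiosis proceeds.

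The cytochromes c were the closest of the 4 testis pairs in coding sequence. The coding sequences of Cyct and Cycs are both 318 bases long and align without gaps with 76.1% identical bases, and the longest identical run is 14 bases. The opening 120 bases of each coding sequence, from GENCODE M21 transcripts on GRCm38, follow with the 23 differing bases in capitals. Cyct lies on chromosome 2 and Cycs on chromosome 6.
Cyct: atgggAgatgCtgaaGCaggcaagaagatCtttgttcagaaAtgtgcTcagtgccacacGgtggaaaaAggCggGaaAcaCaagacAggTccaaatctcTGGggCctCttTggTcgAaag
Cycs: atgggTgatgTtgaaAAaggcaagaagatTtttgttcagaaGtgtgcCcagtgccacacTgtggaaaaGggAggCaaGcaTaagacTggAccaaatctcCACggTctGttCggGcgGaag
The other pairs were further apart. Coding identity was 61.3% for Cox6b2 and Cox6b1, 63.9% for Cox7b2 and Cox7b, and 51.1% for Cox8c and Cox8a, with no identical run longer than 14 bases.

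The promoters of the cytochrome pair differ in the motifs they hold. Both windows, credited to RefSeq on GRCm38.p6, run from 250 bases before to 50 bases after the annotated start and are on the minus strand, Cyct at chr2:76360404-76360703 and Cycs at chr6:50566520-50566819. Capitals mark matches on either strand to GCGCATGC, the core of the site bound by NRF1, a transcription factor of many respiratory genes, and to TGACGTCA, the cyclic AMP response element.
Cyct promoter: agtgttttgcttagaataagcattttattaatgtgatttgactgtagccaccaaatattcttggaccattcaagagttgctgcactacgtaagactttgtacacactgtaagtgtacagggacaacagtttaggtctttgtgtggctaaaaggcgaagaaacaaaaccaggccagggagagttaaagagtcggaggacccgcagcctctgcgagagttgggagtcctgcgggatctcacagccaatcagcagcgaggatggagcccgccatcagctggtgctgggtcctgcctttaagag
Cycs promoter: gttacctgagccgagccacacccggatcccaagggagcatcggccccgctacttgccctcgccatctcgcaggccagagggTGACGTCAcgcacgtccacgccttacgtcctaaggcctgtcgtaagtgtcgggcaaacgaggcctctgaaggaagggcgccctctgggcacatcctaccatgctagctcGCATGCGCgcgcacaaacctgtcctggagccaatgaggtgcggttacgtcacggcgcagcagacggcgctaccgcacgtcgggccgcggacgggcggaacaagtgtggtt
The Cycs window held 1 match to each motif, the NRF1 core at position -60 and the response element at position -169 from the start, and the Cyct window held neither. A promoter window was found for 76 of the 92 members. Of these, 12 (15.8%) held the NRF1 core, against 2.71% of all 32851 windows in the table and 3.05% of its 27025 genes. They were Atp5g2, Atp5k, Atp5l, Cox6a1, Cycs, Ndufa11, Ndufa6, Ndufa8, Ndufaf4, Sdhb, Uqcr11 and Uqcrc1. Cyct, Cox6b2 and Cox7b2 were searched without a match, as were the general paralogs Cox6b1, Cox7b and Cox8a. Cox8c was not searched. The response element was found in 5 members, 6.58% of those with a window, against 1.79% of all windows and 2.03% of the 27025 genes. These were Cycs, Ndufa10, Ndufa11, Ndufb2 and Uqcrfs1. A match is a description of letters and not a site known to be bound, and the NRF1 core overlaps its own reverse complement, so that neighbouring matches can share bases.

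Values are FPKM as the authors deposited them, that is, sequenced fragments divided by transcript length and by library depth. FPKM is a level per length, so genes can be set side by side. Total FPKM was 528756 and 489702 in the KO libraries and 498299 and 497141 in the WT libraries. Steps left by whole fragments in the low values put the depth of KO replicates 1 and 2 at 0.782 and 0.904 and that of WT replicate 1 at 0.901 of WT replicate 2, which held roughly 21500000 to 23300000 fragments. Fam46c itself stood at 131 and 129.9 FPKM in the KO libraries, against 236 and 134 FPKM in the WT libraries (log2 fold change -0.45, SE 0.21, limma with Benjamini-Hochberg adjustment, adjusted p = 1). Without WT replicate 1 its log2 fold change was -0.04. No source used here gives the altered part of the gene, so its transcript level does not check the labels. The 9 spermatocyte and 10 spermatid markers all passed a filter of 1 FPKM on the mean of the 4 libraries, as the testis label requires, while the 5 epididymis markers summed to 0.124 FPKM or less in each library. Spermatid markers summed to 70243 and 56884 FPKM in the KO libraries, against 49667 and 63913 FPKM in the WT libraries. Most of each sum came from Prm1, Prm2, Tnp1 and Tnp2. The 7 Leydig cell markers summed to 619 and 302 FPKM in KO, against 1264 and 1376 FPKM in WT. Most of the WT sum was Insl3, at 379 and 189 FPKM in KO, against 1100 and 1136 FPKM in WT (log2 fold change -2.06, limma adjusted p = 0.00507). Hsd3b6 was also lower in KO, at 2.35 and 1.5 FPKM, against 4.94 and 17.1 FPKM in WT. Cyp17a1, Cyp11a1, Star, Hsd3b1 and Lhcgr overlapped between the genotypes, so the lower sum does not hold across the list. The 4 red blood cell markers, of which 3 were tested and 1, Hba-a1, was called lower in KO, summed to 11.3 and 6.18 FPKM in KO and 35.2 and 29.2 FPKM in WT. Hba-a1 made up most of the WT sum. Hbb-b2 was also lower in KO without overlap. Alas2 overlapped, at 9.61 and 5.5 FPKM in KO and 9.03 and 7.62 FPKM in WT. Hbb-b1, the marker that was not tested, was practically absent, at 8.6e-05 and 8.09e-05 FPKM in KO and 6.21e-05 and 5.02e-05 FPKM in WT. How fragments that fit several globin genes were counted is not known, and their part in these values was not tested. The part of these cell types in the results that follow was not tested. In whole tissue, fewer cells of a type and less RNA per cell cannot be told apart.

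Respiratory chain transcripts were among the more abundant of the testis. Of the 92 members, 34 averaged 100 FPKM or more, 41 lay between 10 and 100, 13 between 1 and 10 and 4 under 1. The 88 members that averaged 1 FPKM or more were tested. Their median was 65.6 FPKM, against 8.72 FPKM for all 12258 tested genes, and the median member stood at percentile 88.0 of the tested genes. The members' summed FPKM was 12301 and 11050 in the KO libraries, against 11620 and 10448 in the WT libraries, which is 2.33% and 2.26% of the total in KO and 2.33% and 2.1% in WT. The KO and WT sums interleave.

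**Figure D1:**
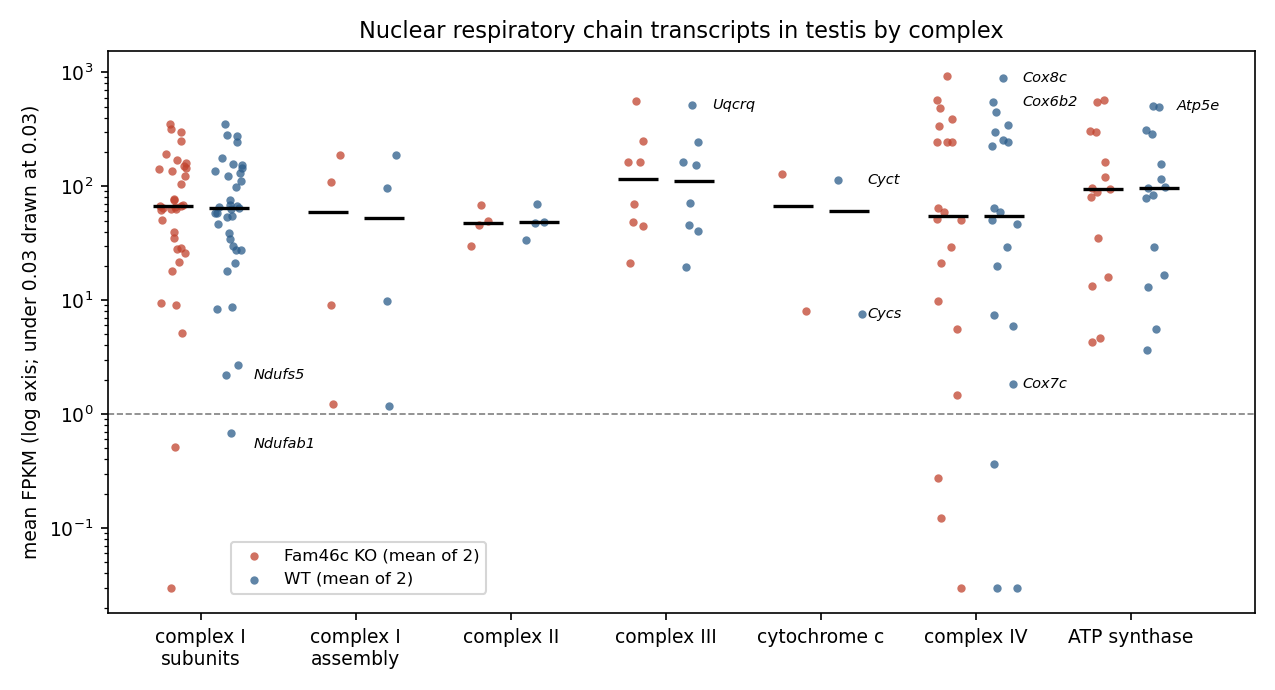
Mean FPKM (log axis) of each member by complex, with Fam46c KO left and WT right, each point the mean of 2 libraries, black bars the medians and the dashed line the level filter of 1 FPKM. In all, 75 members average 10 FPKM or more, with Cox8c highest and a few general subunits such as Ndufab1 and Cox7c far below the rest of their complex.

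Each testis form exceeded its general paralog in all 4 libraries. Cox8c, the testis form of a small transmembrane subunit of complex IV, was the most abundant member and ranked 40th among the 12258 tested genes. It stood at 968 and 876 FPKM in KO, against 932 and 855 FPKM in WT, while its general paralog Cox8a stood at 58.7 and 44.0 FPKM in KO and 53.5 and 47.3 FPKM in WT. Cox6b2, the testis form of a subunit facing the intermembrane space, ranked 83rd, with 601 and 551 FPKM in KO and 586 and 500 FPKM in WT. Its paralog Cox6b1 was at 69.5 and 59.6 FPKM in KO and 66.0 and 62.3 FPKM in WT. In both pairs the genotypes overlapped for either form.

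The general paralogs of Cyct and Cox7b2 were under 10 FPKM in all 4 libraries. Cyct was at 125 and 129 FPKM in KO, against 118 and 108 FPKM in WT, and Cycs at 8.2 and 7.89 FPKM in KO, against 8.29 and 6.92 FPKM in WT. Both KO values of Cyct lay above both WT values, but the difference missed the threshold (log2 fold change 0.17, SE 0.13, limma adjusted p = 1). Cox7b2 was at 258 and 227 FPKM in KO, against 233 and 217 FPKM in WT, and Cox7b at 7.16 and 3.99 FPKM in KO, against 6.35 and 5.6 FPKM in WT. The 3 other testis forms also missed the threshold, with log2 fold changes of 0.04 for Cox8c, 0.09 for Cox6b2 and 0.11 for Cox7b2 and SEs of 0.13 to 0.14 (limma adjusted p = 1 for each).

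**Figure D2:**
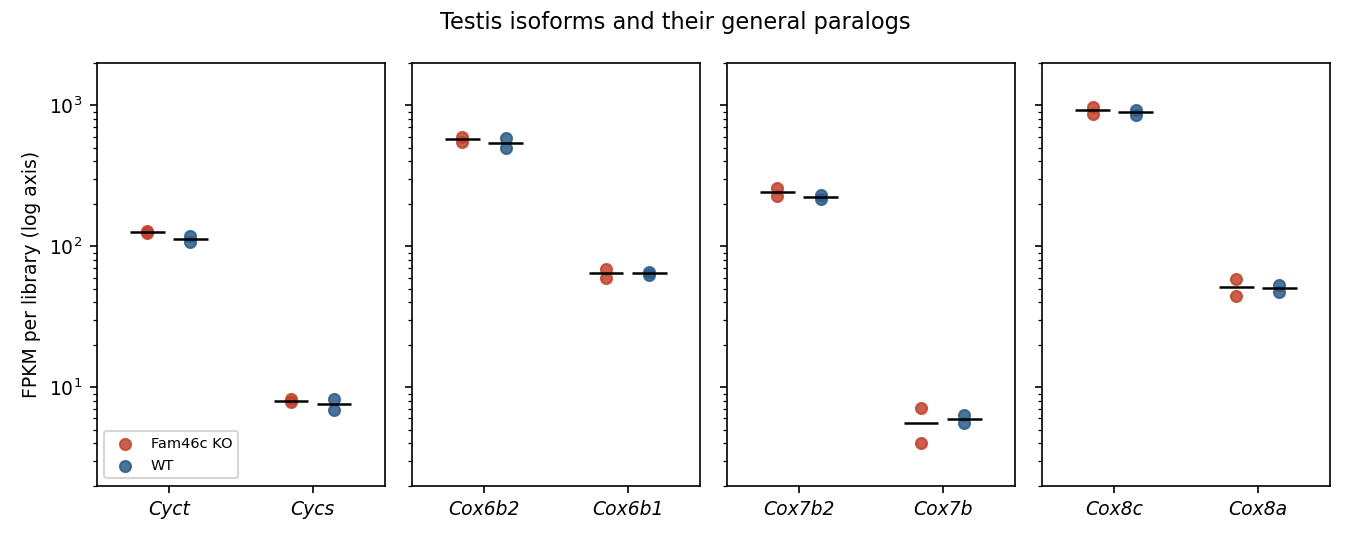
FPKM (log axis) of the 4 testis forms and their general paralogs, 1 point per library with Fam46c KO left of WT and bars at the mean of 2 libraries. Each testis form lies above its paralog, by ratios of 8.02 to 56.9 over the 4 libraries, and KO and WT points lie close together.

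As a share of the pair, the testis form took 93.8% and 94.2% of cytochrome c FPKM in KO, against 93.4% and 94.0% in WT. Cox6b2 took 89.6% and 90.2% in KO, against 89.9% and 88.9% in WT. Cox8c took 94.3% and 95.2% in KO and 94.6% and 94.8% in WT, and Cox7b2 97.3% and 98.3% in KO and 97.3% and 97.5% in WT. The KO and WT ranges overlapped for all 4 pairs. On the scale of log2(FPKM + 1), the ratio of testis to general form differed between KO and WT by 0.09 for Cyct, 0.08 for Cox6b2, 0.23 for Cox7b2 and 0.03 for Cox8c, with two-sided exact permutation p of 0.667, 0.667, 1 and 1. With 2 libraries against 2 the smallest p such a test can give is 0.333. The Cox7b2 difference rested on KO replicate 2, where Cox7b was lowest, and was -0.03 without it.

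The ratios of Cyct to Cycs and of Cox7b2 to Cox7b may depend on how near-identical copies were counted. Cycs has 4 other annotated genes that match its coding sequence at 95% identity or more over at least 80% of its length, among them Gm10053 with 100% identity, and Cox7b has 2, whereas Cyct, Cox6b2, Cox7b2, Cox8c, Cox6b1 and Cox8a have 0. No source used here says how fragments that fit several places were counted, and their part in the KO and WT values of Cycs and Cox7b was not tested. FPKM also depends on the transcript length assumed, and the transcript taken here from GENCODE M21 is 3123 bases long for Cycs and 655 for Cyct. The ratios of Cyct to Cycs (15.2 and 16.3 in KO, 14.2 and 15.6 in WT) and of Cox7b2 to Cox7b (36.0 and 56.9 in KO, 36.7 and 38.7 in WT) are therefore less certain than those of Cox6b2 to Cox6b1 (8.66 and 9.24 in KO, 8.89 and 8.02 in WT) and Cox8c to Cox8a (16.5 and 19.9 in KO, 17.4 and 18.1 in WT).

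Forms typical of other tissues were scarce, with 1 exception. Cox4i2, known from lung, was at 0.449 and 0.0975 FPKM in KO and 0.293 and 0.44 FPKM in WT, which corresponds to between 1.44 and 7.18 fragments a library. Its paralog Cox4i1 was at 519 and 448 FPKM in KO, against 461 and 433 FPKM in WT. Of the forms of heart and skeletal muscle, Cox8b was listed at 0 in all 4 libraries. Cox6a2 was at 0.131 and 0.114 FPKM in KO and listed at 0 in both WT libraries, which corresponds to 1.57 fragments in each KO library, so that no difference was detectable at this depth. Cox7a1 was the exception and is described below. Ndufa4l2, known to be induced by low oxygen in other cells, was at 30.9 and 27.9 FPKM in KO and 28.4 and 30.3 FPKM in WT. It made up 36% to 41.4% of the sum with Ndufa4 over the 4 libraries.

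No member was called different between Fam46c KO and WT. Limma called 0 of 88 tested members at a Benjamini-Hochberg adjusted p under 0.05, against 0.114% of all tested genes (14 of 12258, 0.0245% higher and 0.0897% lower in KO). With the replicate number as a block, a pairing the labels do not state, 2 members passed, Ndufb4 (limma adjusted p = 0.0167) and Ndufs5 (9.56e-08), against 0.555% of all tested genes. At an unadjusted p under 0.05 there were 3 members, Ndufb4, Cox7a1 and Ndufs5, or 3.41% of the 88, against 2.02% of all tested genes. Both counts include Ndufs5, which passed the level filter only through WT replicate 2. The other 85 members had log2 fold changes between -0.27 and 0.25. The SE of a member was 0.12 at the lowest and 0.14 at the median.

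**Figure D3:**
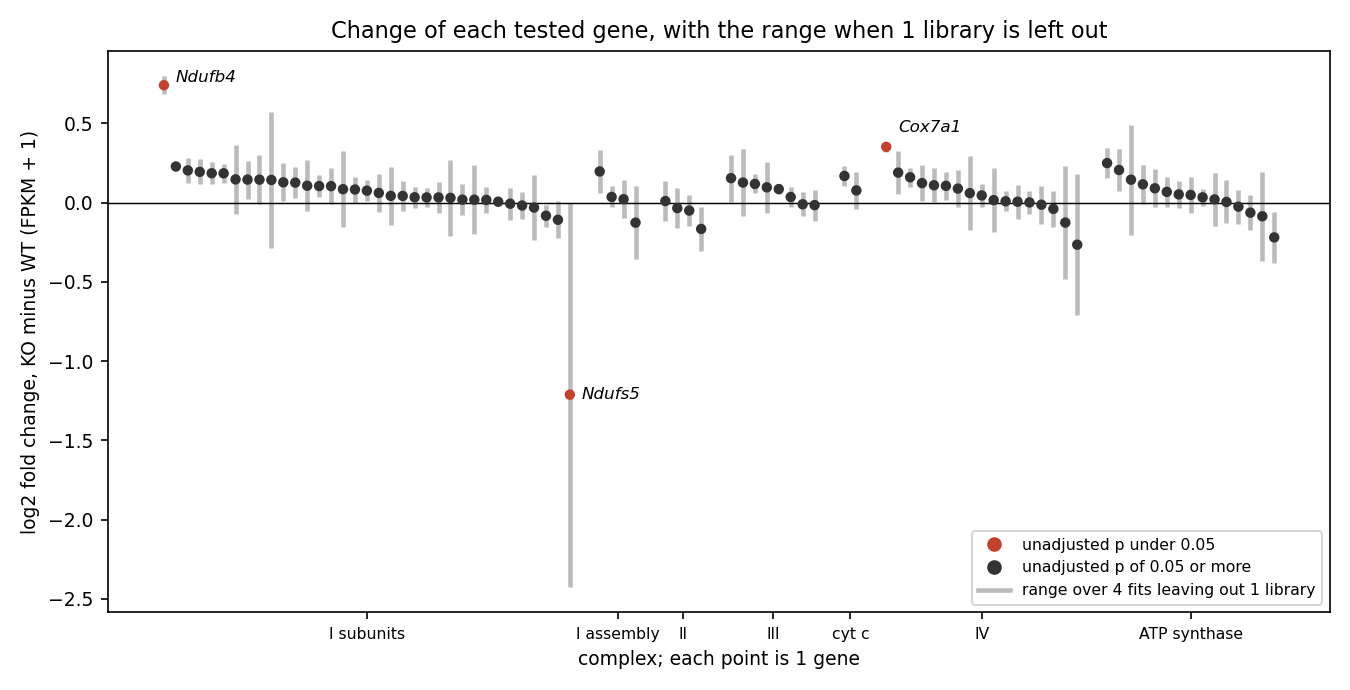
Log2 fold change, KO minus WT, of FPKM + 1 for 85 tested members in the 7 complex groups, 1 point per gene, with grey bars spanning the fits that leave out 1 library. Ndufb4 and Cox7a1 stay above 0 in every such fit, as do a number of other members, among them Ndufa13, Atp5g1, Ndufa3, Cox7a2 and Cyct. Ndufs5 spans from -2.42 to about 0, and most other bars lie close to or across 0.

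Ndufb4, an accessory subunit of the membrane arm of complex I, had the smallest p of the members. It was at 5.1 and 5.18 FPKM in KO, against 2.82 and 2.53 FPKM in WT. The KO libraries were close to each other and clear of the WT libraries, with a log2 fold change of 0.74 (SE 0.15, unadjusted p = 0.000478, limma adjusted p = 0.203). Without any 1 library the log2 fold change lay between 0.68 and 0.80 and the adjusted p between 0.483 and 1. The values correspond to roughly 87 and 102 fragments in KO and 55 and 55 in WT. The coding sequence of Ndufb4 is matched at 100% identity over 100% of its length by the annotated pseudogene Ndufb4c, whose symbol is not among the rows used here, so its level is uncertain.

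Cox7a1, the heart and skeletal muscle form of a complex IV subunit, was at 9.62 and 9.85 FPKM in KO, against 7.23 and 7.6 FPKM in WT. The groups did not overlap, with a log2 fold change of 0.35 (SE 0.14, unadjusted p = 0.0316, limma adjusted p = 1). Its general paralog Cox7a2 was at 349 and 321 FPKM in KO and 303 and 297 FPKM in WT, again without overlap (log2 fold change 0.16, SE 0.13, limma adjusted p = 1). Cox7a1 made up 2.68% and 2.97% of the pair in KO, against 2.33% and 2.49% in WT (two-sided exact permutation p = 0.333 for the log2 ratio). The 6 striated muscle markers summed to 1.08 and 1.07 FPKM in KO and 0.958 and 0.805 FPKM in WT, so they stood far below Cox7a1 in all 4 libraries.

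Ndufs5, an accessory complex I subunit, rested on 1 library. It was at 4.37 FPKM in WT replicate 2 and below 0.0001 FPKM in WT replicate 1 and in both KO libraries, for a log2 fold change of -1.21 (SE 0.53, unadjusted p = 0.0423, limma adjusted p = 1). Only WT replicate 2 lifted its mean above the level filter of 1 FPKM. The tests of Ndufs5 therefore come from the library that admitted it and give no support for a difference. Without WT replicate 1 the log2 fold change was -2.42. Without WT replicate 2 it was close to 0. Its processed pseudogene BC002163 carried the higher value, with 176 and 165 FPKM in KO, against 171 and 149 FPKM in WT. The sum of both was 176 and 165 FPKM in KO and 171 and 153 FPKM in WT. Over 319 aligned bases of the 321-base coding sequence, the transcripts differ at 2, both of which lie in the 90 bases that follow in capitals, from GENCODE M21 on GRCm38. Ndufs5 lies on chromosome 4 and BC002163 on chromosome 16.
Ndufs5: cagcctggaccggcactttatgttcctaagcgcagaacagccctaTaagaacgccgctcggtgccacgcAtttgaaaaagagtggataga
BC002163: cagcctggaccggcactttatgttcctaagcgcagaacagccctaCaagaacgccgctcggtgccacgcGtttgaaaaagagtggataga

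Near-identical copies touched other members too. By the same criterion 24 of the 92 members had at least 1 copy, 45 copies in all, of which 41 are typed as pseudogenes and 3 are listed in the FPKM tables. Of the 17 members under 10 FPKM, 9 had a copy, against 15 of the 75 members at 10 FPKM or more. Median level was 7.82 FPKM for the 5 members with 3 or more copies, 32.3 FPKM for the 19 with 1 or 2, and 73.2 FPKM for the 68 with none. Cox7c, a complex IV subunit with 3 copies, was at 2.2 and 0.725 FPKM in KO and 2.17 and 1.52 FPKM in WT; it was chosen for its low level. Atp5l, subunit g of ATP synthase, with 8 copies, was at 5.57 and 3.07 FPKM in KO and 3.79 and 3.57 FPKM in WT. Ndufab1, the mitochondrial acyl carrier protein, with 2 copies, stood just below the level filter at 0.777 and 0.253 FPKM in KO and 0.761 and 0.609 FPKM in WT. Ndufs5, at a mean of 1.09 FPKM, stood just above that filter through WT replicate 2 alone. These levels may not stand for the transcript of the gene alone, and the part of multiply mapping fragments in them was not tested.

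**Figure D4:**
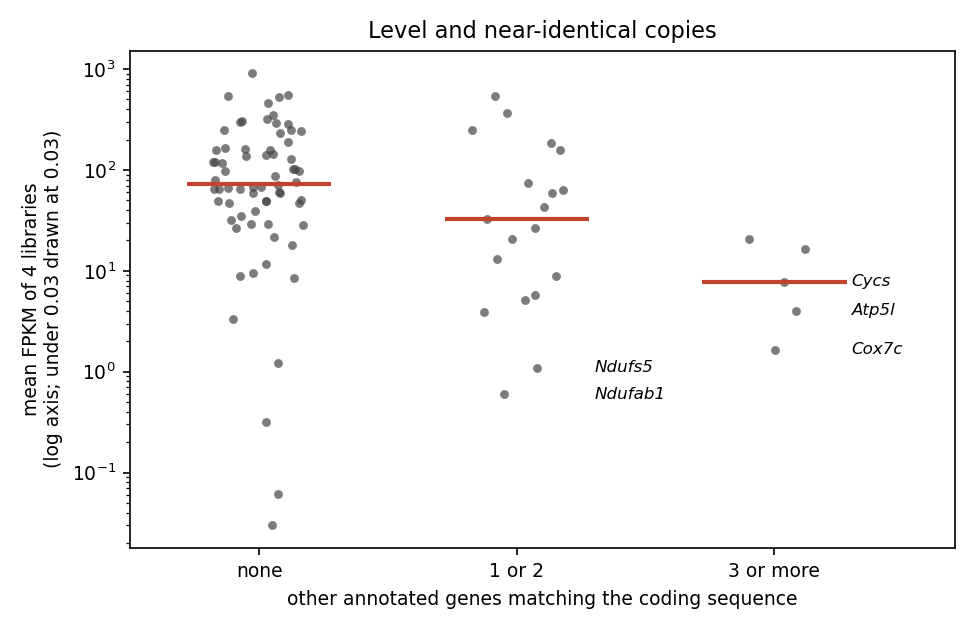
Mean FPKM over the 4 libraries (log axis) of each of the 92 members by the number of other annotated genes matching its coding sequence, with red bars at the medians. The medians are 73.2, 32.3 and 7.82 FPKM for no copy, 1 or 2 copies and 3 or more copies.

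Complex I had no called gene, against 0.114% of all tested genes. The 36 subunits summed to 3692 and 3285 FPKM in KO, against 3460 and 3104 FPKM in WT. Of the 35 tested, 29 had a positive log2 fold change (median 0.07), against 47.7% of all tested genes. Over the members of all complexes this direction depended on single libraries, with 44.3% positive without KO replicate 1 or without WT replicate 2. Ndufa7, an accessory subunit, was highest, at 378 and 329 FPKM in KO and 367 and 330 FPKM in WT. Ndufa13, an accessory subunit also known as GRIM-19, was at 62.0 and 64.4 FPKM in KO, against 54.6 and 53.1 FPKM in WT, with no overlap (log2 fold change 0.23, SE 0.12, limma adjusted p = 1). Genes of the catalytic core overlapped between genotypes. Ndufs1, which carries iron-sulphur clusters, was at 29.3 and 27.4 FPKM in KO and 31.6 and 28.6 FPKM in WT, and Ndufv1, which binds NADH, at 69.7 and 62.9 FPKM in KO and 69.0 and 58.3 FPKM in WT. Ndufa12, an accessory subunit with 1 near copy, differed widely between libraries of a group, at 101 and 55.2 FPKM in KO and 54.3 and 83.7 FPKM in WT. Ndufa13, Ndufs1, Ndufv1 and Ndufa12 were chosen after their values were seen. Of the assembly factors, Ndufaf3 was highest, at 205 and 173 FPKM in KO and 175 and 197 FPKM in WT, and Ndufaf4 lowest, at 1.25 and 1.23 FPKM in KO and 1.29 and 1.09 FPKM in WT. Ndufaf2, an assembly factor of the peripheral arm, was at 113 and 107 FPKM in KO, against 105 and 86.9 FPKM in WT (log2 fold change 0.20, SE 0.14, limma adjusted p = 1). Ndufaf1 overlapped between genotypes, at 10.7 and 7.52 FPKM in KO and 9.54 and 10.3 FPKM in WT.

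Complex II, the succinate dehydrogenase, was the group with the lowest median log2 fold change, -0.04 over 4 genes. The flavoprotein gene Sdha was at 49.2 and 43.0 FPKM in KO and 50.3 and 45.1 FPKM in WT. The iron-sulphur subunit gene Sdhb was at 73.7 and 61.9 FPKM in KO and 71.3 and 67.2 FPKM in WT. The membrane anchor gene Sdhd was the lowest of the 4 and the only one without overlap, at 33.0 and 27.0 FPKM in KO, against 33.8 and 33.5 FPKM in WT (log2 fold change -0.17, SE 0.14, limma adjusted p = 1). Its gap between the groups, 33.0 against 33.5 FPKM, was far smaller than the spread of the KO libraries.

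Complex III genes summed to 1384 and 1266 FPKM in KO, against 1310 and 1205 FPKM in WT. Uqcrq, a small subunit, was highest at 587 and 540 FPKM in KO and 528 and 510 FPKM in WT, a difference without overlap but within error (log2 fold change 0.12, SE 0.13, limma adjusted p = 1). Uqcrb, a ubiquinone-binding protein with 3 near copies, was lowest, at 20.6 and 22.2 FPKM in KO and 22.7 and 16.7 FPKM in WT. Uqcr11 was at 49.0 and 41.3 FPKM in KO and 44.8 and 36.3 FPKM in WT.

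Complex IV genes summed to 3936 and 3529 FPKM in KO, against 3711 and 3354 FPKM in WT. Of the 17 tested members, 13 were at a positive log2 fold change (median 0.04), against 47.7% of all tested genes. The dependence of this direction on single libraries is given below for all members. Beside the testis forms, Cox6c stood at 412 and 370 FPKM in KO and 376 and 312 FPKM in WT (log2 fold change 0.19, SE 0.14, limma adjusted p = 1), and Cox6a1 at 255 and 235 FPKM in KO and 272 and 233 FPKM in WT. Both overlapped between the genotypes.

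ATP synthase genes summed to 2571 and 2328 FPKM in KO, against 2473 and 2144 FPKM in WT. Atp5k, subunit e of the membrane part, had the highest mean over the 4 libraries, at 593 and 558 FPKM in KO, against 547 and 454 FPKM in WT (log2 fold change 0.21, SE 0.14, limma adjusted p = 1). Atp5e, the epsilon subunit of the rotor stalk, was at 579.8 and 522 FPKM in KO and 553 and 466 FPKM in WT, below Atp5k in both KO libraries and above it in both WT libraries. Atp5g1, Atp5g2 and Atp5g3 encode the same mature subunit c of the rotor ring. Atp5g1 was at 34.8 and 35.5 FPKM in KO, against 31.5 and 27.5 FPKM in WT, without overlap (log2 fold change 0.25, SE 0.13, limma adjusted p = 1). Atp5g2 lay the other way, at 4.6 and 4.71 FPKM in KO, against 6.37 and 4.89 FPKM in WT (log2 fold change -0.22, SE 0.16, limma adjusted p = 1), and Atp5g3 was at 89.9 and 71.1 FPKM in KO and 86.9 and 71.6 FPKM in WT. Atp5e, Atp5g2 and Atp5g3 were named after their values were seen. Atp5g1 has 1 near copy and Atp5g2 has 2.

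Across all members, 67 of 88 (76.1%) had a positive log2 fold change, against 47.7% of all tested genes, with medians of 0.05 for the members and -0.01 for all tested genes. This direction depended on single libraries. Without KO replicate 1 the members' median was -0.03 and 44.3% were positive, and without WT replicate 2 it was -0.02 with 44.3% positive. Without KO replicate 2 it was 0.14 with 89.8% positive, and without WT replicate 1 it was 0.12 with 84.1% positive. Scaling each library to the same total FPKM left 60.2% of members positive, against 37.3% of all genes. Without overlap between the groups, 15 members (17%) were higher in KO, against 9.47% of all tested genes, and 2 (2.27%), Atp5g2 and Sdhd, were lower in KO, against 10.6% of all tested genes.

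The members also shifted together between libraries of the same genotype. In KO, 86.4% of the 88 tested members were higher in replicate 1 than in replicate 2, against 53.7% of all tested genes. In WT the share was 88.6% of members, against 65.3% of all tested genes. Both held for 77.3% of members, against 34.4% of all tested genes. The median difference of a member between the replicates of a group was 0.15 on the log2 scale in KO and 0.14 in WT, against a median log2 fold change of 0.05 between the genotypes. By the members' median, KO replicate 1 was the highest library and WT replicate 2 the lowest. KO replicate 1 was also the library with the highest total FPKM and the highest spermatid marker sum, while WT replicate 2 was second in that sum. This order came from Prm1, Prm2, Tnp1 and Tnp2. KO replicate 1 was not the highest library for Acrv1, Spaca1, Odf1, Catsper1, Tssk6 or Smcp. Smcp was at 2033 and 1916 FPKM in KO, against 2340 and 2259 FPKM in WT, and Odf1 was likewise lower in KO without overlap. The part of library makeup in this offset was not tested.

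**Figure D5:**
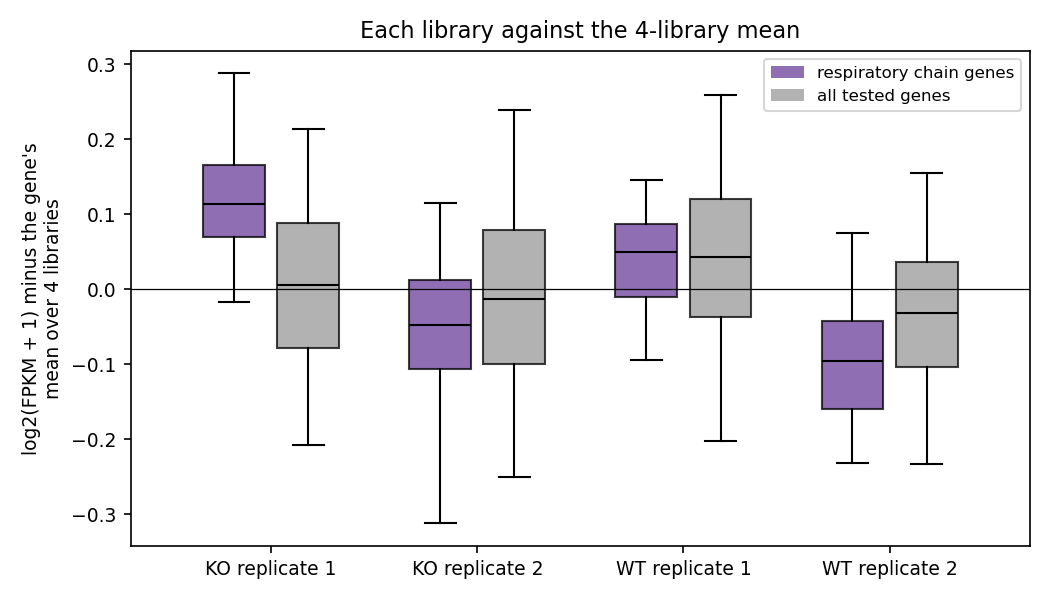
For each library, the log2(FPKM + 1) of a gene minus its mean over the 4 libraries, for the 88 tested respiratory chain genes (purple) and all 12258 tested genes (grey); boxes show quartiles and medians and whiskers the 5th and 95th percentiles. The members' medians are 0.11 in KO replicate 1, -0.05 in KO replicate 2, 0.05 in WT replicate 1 and -0.10 in WT replicate 2.

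Other genes of the pathway, from lists of assembly factors, coenzyme Q enzymes and nuclear regulators, gave 0 calls in either direction among 54 tested genes of 61 on the lists. Of the 54 tested genes, 38 had a positive log2 fold change, against 5850 of all 12258 tested genes (47.7%). Whether this direction depends on single libraries, as it did for the members, was not tested. Only 1 of the 54 had an unadjusted limma p under 0.05, against 248 of all 12258 (2.02%). That gene was Cox17, a copper chaperone for complex IV, at 95.9 and 94.0 FPKM in KO, against 85.2 and 67.9 FPKM in WT (log2 fold change 0.32, SE 0.14, limma adjusted p = 1). Surf1, an assembly factor of complex IV, was at 7.33 and 5.75 FPKM in KO and 5.82 and 4.75 FPKM in WT. Tfam, which packages and transcribes mitochondrial DNA, was at 36.2 and 36.7 FPKM in KO, against 25.5 and 35.0 FPKM in WT (log2 fold change 0.28, SE 0.16, limma adjusted p = 1). Gabpb1, a subunit of the factor NRF-2, was at 11.4 and 14.0 FPKM in KO, against 11.1 and 11.3 FPKM in WT. Among the coenzyme Q genes, Coq10a was at 1.97 and 2.14 FPKM in KO and 1.58 and 1.34 FPKM in WT, and Pdss1, which makes the isoprenoid tail, at 1.42 and 1.16 FPKM in KO and 1.23 and 0.658 FPKM in WT. Usmg5, a small ATP synthase subunit, was at 6.76 and 3.31 FPKM in KO and 3.83 and 3.4 FPKM in WT, and the assembly factor Atpaf2 at 18.2 and 21.1 FPKM in KO and 18.3 and 18.1 FPKM in WT. For complex III, the assembly factors Bcs1l and Lyrm7 had log2 fold changes of 0.29 and 0.17. For complex I, Tmem126b and Ecsit were at -0.21 and 0.11, and for complex II, Sdhaf1 and Sdhaf2 were at 0.09 and -0.00302. Hccs, which attaches haem to cytochrome c, was at 2.46 and 3.21 FPKM in KO and 3.12 and 2.42 FPKM in WT.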

How the data were processed

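One FPKM table per library was deposited, with gene symbols and FPKM per the file headers. The mm9 build, Cuffdiff, Cufflinks 2.0.2 and TopHat2 2.0.6 are named, without role, per the submitters' processing notes. For the annotation, strand setting and treatment of multiply mapping fragments: not given in the sources used here. FPKM were summed over repeated symbols (259 symbols, 0 members). Symbols that averaged 1 FPKM or more were analysed as log2(FPKM + 1), which understates changes of low genes, in limma 3.58.1 under R 4.3.3 with an intensity trend and two-sided Benjamini-Hochberg adjusted p (2 residual and 9.48 prior degrees of freedom). The fit was also run on data simulated from its own variances, with no shift shared across genes. That run does not check how the fit behaves with the shared shifts seen here. Copies were sought with BLAST+ 2.17.0 in GENCODE M21 (at least 95% identity over 80% of the coding sequence), a different build from mm9, used for names and sequence only. Named genes were every member of an isoform pair, the highest, the lowest and the 2 of smallest p in each complex, members with an unadjusted p under 0.05 or beside the level filter, and the 2 of smallest p in each pathway list. Members and lists were chosen with earlier results of these data known. Protein sequences and mitochondrially encoded genes were not used here. Fragment numbers are rough and cover counting only.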

Additional observations from a re-analysis of the deposited data

How the results depend on the processing

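Alternatives changed the pseudocount, level filter, scaling, variance model, repeated symbols, the replicate block and each library in turn. With all 4 libraries, the number of members called was 0 except with the replicate number as a block, where it was 2. These were Ndufb4 (limma adjusted p = 0.0167) and Ndufs5 (9.56e-08). Ndufs5 passed the level filter only through WT replicate 2, so its passing values give no support for a difference. The labels do not say that numbers pair the libraries. The correlation across genes of same-numbered libraries' deviations was -0.03, which leaves aside the shift that the members share, replicate 1 above replicate 2 in both genotypes for 77.3% of them. The count over all genes, 14, was 2 with no filter, 9 with a mean of at least 5 FPKM, 6 after median scaling, 7 after total scaling, 6 after quantile normalization, 8 with robust variances and 68 with the block, and 9 to 20 without 1 library; the cause was not tested. For the 47 named genes with a test, 3 of 695 alternative values passed the threshold and 44 had another sign, 34 of them without 1 library. Without 1 library, the log2 ratio difference, KO minus WT, was 0.04 to 0.14 for Cyct and 0.01 to 0.16 for Cox6b2, and changed sign for Cox7b2 (-0.03 to 0.50) and Cox8c (-0.10 to 0.16). The log2 of KO over WT summed FPKM of all members, 0.08, was 0.05 after total scaling and 0.09 after median scaling, and no complex changed direction under either. At 2 libraries a group, small changes lie within error.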
